A study of Mus musculus with 16 samples.

Results

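The genes described here are 10 CC chemokines that attract monocytes, lymphocytes and other leukocytes: Ccl2, Ccl3, Ccl4, Ccl6, Ccl7, Ccl8, Ccl11, Ccl20, Ccl25 and Ccl28. They were taken by symbol from a gene expression table of mouse colon, in which each of the 10 had 1 row among 39328 genes. The study set the colons of adult mice born by caesarean section (CS) beside those of mice born by vaginal delivery (VD), with and without dextran sulfate sodium (DSS), a polymer that injures the colon lining when it is drunk. All mice were of the outbred ICR strain and carried the label WT for genotype. DSS_CS were CS-born mice given 3% DSS for 8 days, DSS_VD were VD-born mice given the same, CON_CS were CS-born mice given normal drinking water, and CON_VD were VD-born mice given normal drinking water. Each of the 4 groups had 4 RNA-seq libraries of colon. The labels give neither litters, age in weeks nor sex, and do not say whether each library is a separate mouse, so a p-value reflects no more than how these libraries scatter.

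CC chemokines are small secreted proteins that bind G protein-coupled receptors on leukocytes and draw the cells along a gradient. Ccl2 and Ccl7 act through Ccr2 and bring monocytes out of the blood, Ccl3, Ccl4 and Ccl6 are made largely by activated myeloid cells and attract monocytes and other leukocytes, and Ccl11 (eotaxin) attracts eosinophils through Ccr3. Ccl20, Ccl25 and Ccl28 are products of mucosal epithelium: Ccl20 attracts Ccr6-bearing lymphocytes and dendritic cells, Ccl25 homes Ccr9-bearing cells to the small intestine, and Ccl28 attracts Ccr10-bearing plasma cells in the colon.

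In DSS-treated colons, Ccl3, Ccl4 and Ccl6 were higher in CS-born than in VD-born mice, and Ccl28 was lower, but these calls were lost when some single libraries were left out, and that of Ccl28 under most alternatives tried. On water no member passed the test between the birth groups. The difference between DSS and water was larger in CS-born than in VD-born mice for Ccl6, which was well expressed in all groups, and for Ccl3 and Ccl4, which were near 0 on water. Ccl2, Ccl7, Ccl8 and Ccl11 were far above their water levels after DSS in both birth groups, with no difference between CS and VD past the threshold.

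The 7 members on chromosome 11 lie in 2 blocks of the GRCm38 build. Ccl2, Ccl7, Ccl11 and Ccl8 lie within 81.2 kb (chr11:82035571-82116799), and Ccl6, Ccl3 and Ccl4 lie within 76.8 kb (chr11:83587882-83664683), with 1471 kb between the blocks. The 3 members called higher in CS-born mice under DSS are those of the second block. Of the other CC ligands near it, Ccl9 (chr11:83572919-83578636) was also called higher and Ccl5 (chr11:83525778-83530518) was not. Ccl20 lies at chr1:83116766-83119167, Ccl25 at chr8:4325210-4360020 and Ccl28 at chr13:119623819-119654359.

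Promoter windows from 250 bases before to 50 bases after the start site were read from RefSeq (GRCm38.p6), where 6 of the 10 members had an entry. Those of Ccl3 (chr11:83649329-83649628, minus strand) and Ccl6 (chr11:83593038-83593337, minus strand) are shown for the group that was higher in CS-born mice under DSS. Those of Ccl28 (chr13:119623569-119623868, plus strand) and Ccl20 (chr1:83116516-83116815, plus strand) are shown for the epithelial members. Capitals mark the letters that matched a searched motif.
Ccl3: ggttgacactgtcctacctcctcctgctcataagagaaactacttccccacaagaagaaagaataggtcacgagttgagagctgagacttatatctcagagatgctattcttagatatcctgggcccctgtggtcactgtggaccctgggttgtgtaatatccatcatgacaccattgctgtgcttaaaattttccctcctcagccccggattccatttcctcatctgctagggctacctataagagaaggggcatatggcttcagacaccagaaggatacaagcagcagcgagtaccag
Ccl6: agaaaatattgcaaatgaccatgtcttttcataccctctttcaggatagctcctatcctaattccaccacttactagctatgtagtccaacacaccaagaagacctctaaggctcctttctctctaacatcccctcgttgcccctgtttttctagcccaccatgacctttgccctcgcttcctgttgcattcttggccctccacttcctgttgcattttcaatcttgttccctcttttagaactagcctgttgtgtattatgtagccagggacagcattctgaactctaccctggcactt
Ccl28: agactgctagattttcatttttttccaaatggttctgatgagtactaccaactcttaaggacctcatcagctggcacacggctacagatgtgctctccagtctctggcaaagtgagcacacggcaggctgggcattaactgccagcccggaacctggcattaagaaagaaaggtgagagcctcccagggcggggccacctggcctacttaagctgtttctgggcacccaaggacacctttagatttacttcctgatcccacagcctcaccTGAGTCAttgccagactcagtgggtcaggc
Ccl20: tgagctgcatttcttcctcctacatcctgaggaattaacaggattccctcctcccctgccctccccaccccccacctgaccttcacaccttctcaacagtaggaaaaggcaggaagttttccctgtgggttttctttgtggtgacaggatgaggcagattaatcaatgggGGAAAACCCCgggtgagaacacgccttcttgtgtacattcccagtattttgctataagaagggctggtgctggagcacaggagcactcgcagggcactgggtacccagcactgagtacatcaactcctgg
Both strands were searched for 4 motifs: the NF-kappa-B consensus, the AP-1 motif TGANTCA, the TATA box TATAAA and the interferon-stimulated response element (GAAA, NN, GAAA). No member's window held more than 1 match, so none overlapped. The motifs occur in 8.46%, 7.81%, 13.6% and 3.44% of 32851 promoter windows of the same length, in that order. The Ccl20 window holds 1 match to the NF-kappa-B consensus on the minus strand, first base 80 bases before the start site (-80). The Ccl28 window holds TGAGTCA, first base 21 bases after it, and the Ccl8 window holds TATAAA at -32. The second of the 2 Ccl25 start sites has TATAAA at -16. The Ccl3 and Ccl6 windows hold none of the 4 motifs in these letters. The windows of Ccl2, Ccl4, Ccl7 and Ccl11 were not used here.

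Expression was given as FPKM, fragments per kilobase scaled to the library's mapped fragments, a unit that corrects for gene length. The FPKM of a library summed to between 280135 and 343423 over all genes, and between 24150 and 26328 genes were above 0. Read depth is unknown, since the table holds no counts. Colon epithelial markers summed to 4882 to 5124 FPKM in CON_CS and 4166 to 4906 FPKM in CON_VD, and markers of small intestinal epithelium to at most 10.2 FPKM in CON_CS and 5.87 FPKM in CON_VD, which fits the colon label. Prostate transcripts stood out in 3 libraries: Pbsn, a secretory gene of the prostate, was at 128 and 1355 FPKM in DSS_CS replicates 3 and 4 and at 185 FPKM in CON_CS replicate 1, against at most 0.526 FPKM in the other 13. CON_VD replicate 1 also stood apart, with macrophage markers at 523 FPKM against 221 to 301 FPKM in the other CON_VD libraries. Its T cell markers were at 8.63 FPKM against 2.02 to 2.67 FPKM. Its neutrophil markers summed to 179.5 FPKM against 73.5 to 85.3 FPKM, but this sum was nearly all Ly6g, at up to 178 FPKM in CON_VD. The highest CON_VD values of S100a8, S100a9 and Mmp9 were 0.253, 0.148 and 0.568 FPKM.

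Summed over the 10 genes, CC chemokine FPKM averaged 634 ± 32.5 in DSS_CS and 395 ± 120.3 in DSS_VD, against 129 ± 23.0 in CON_CS and 156 ± 10.3 in CON_VD (SD, n = 4 each). The sums ran between 599 and 676 FPKM in DSS_CS and between 222 and 492 FPKM in DSS_VD, so these groups did not overlap. The lowest DSS sum belonged to DSS_VD replicate 2, which was also the lowest DSS_VD library for Ccl2, Ccl6, Ccl7, Ccl8 and Ccl11. Ccl6 and Ccl8 made up most of the total after DSS, at 36.7% and 31.4% in DSS_CS and 32.9% and 38.2% in DSS_VD. On water, Ccl6 and Ccl28 made up most of it, at 62.3% and 25.1% in CON_CS and 61.2% and 25.7% in CON_VD.

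**Figure D1:**
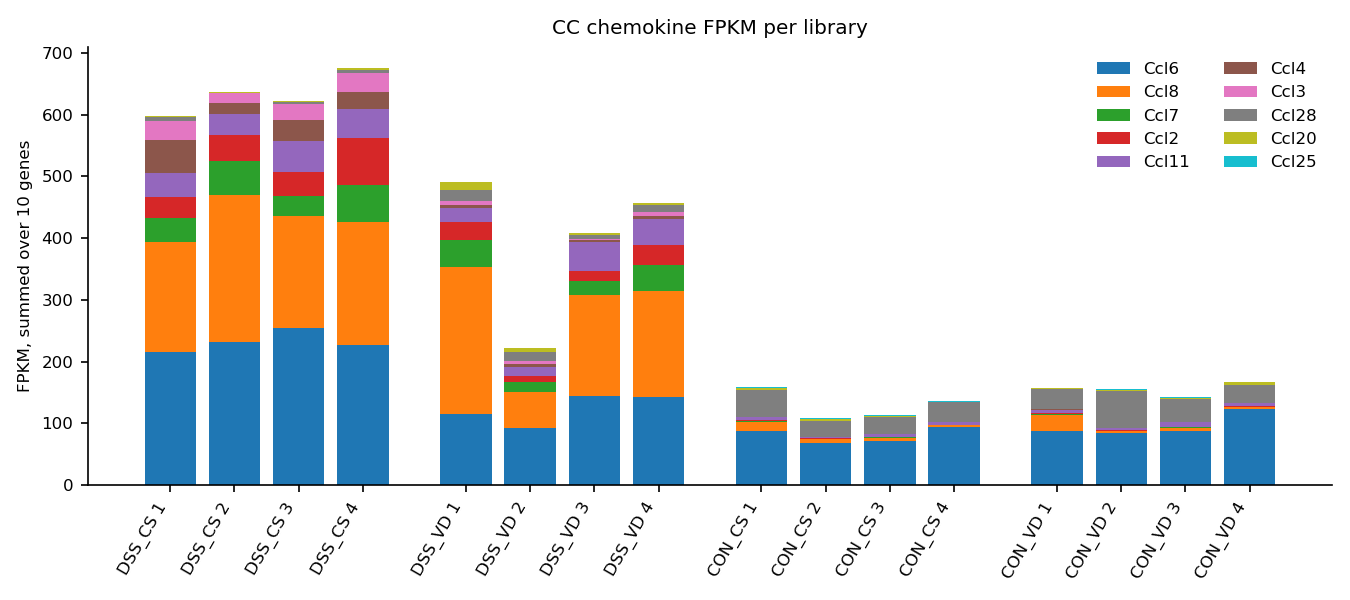
FPKM of the 10 CC chemokine genes stacked in each of the 16 libraries, which are grouped by DSS or water and by birth mode, with the replicate number after the group. The DSS_CS bars reach 599 to 676 FPKM and the DSS_VD bars 222 to 492 FPKM; the grey Ccl28 share is widest in the water libraries.

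Differences below are on the log2(FPKM + 1) scale, tested with limma across all genes in which at least 4 of the fitted libraries reached 1 FPKM, with Benjamini-Hochberg adjustment and a threshold of 0.05. Adding 1 understates the change of genes near 0. Between CS-born and VD-born mice under DSS, 4 of the 9 members tested passed, 3 higher and 1 lower, where 13.4% of all 14313 genes tested passed in either direction, 7.89% higher and 5.54% lower. The median difference was 0.69 over the 9 members and 0.06 over all genes tested. With each library divided by a size factor the split over all genes changed from 1130 higher and 793 lower to 850 higher and 857 lower, and the 4 members kept their calls. In a piece of colon, more cells of a type and more RNA per cell cannot be told apart.

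**Figure D2:**
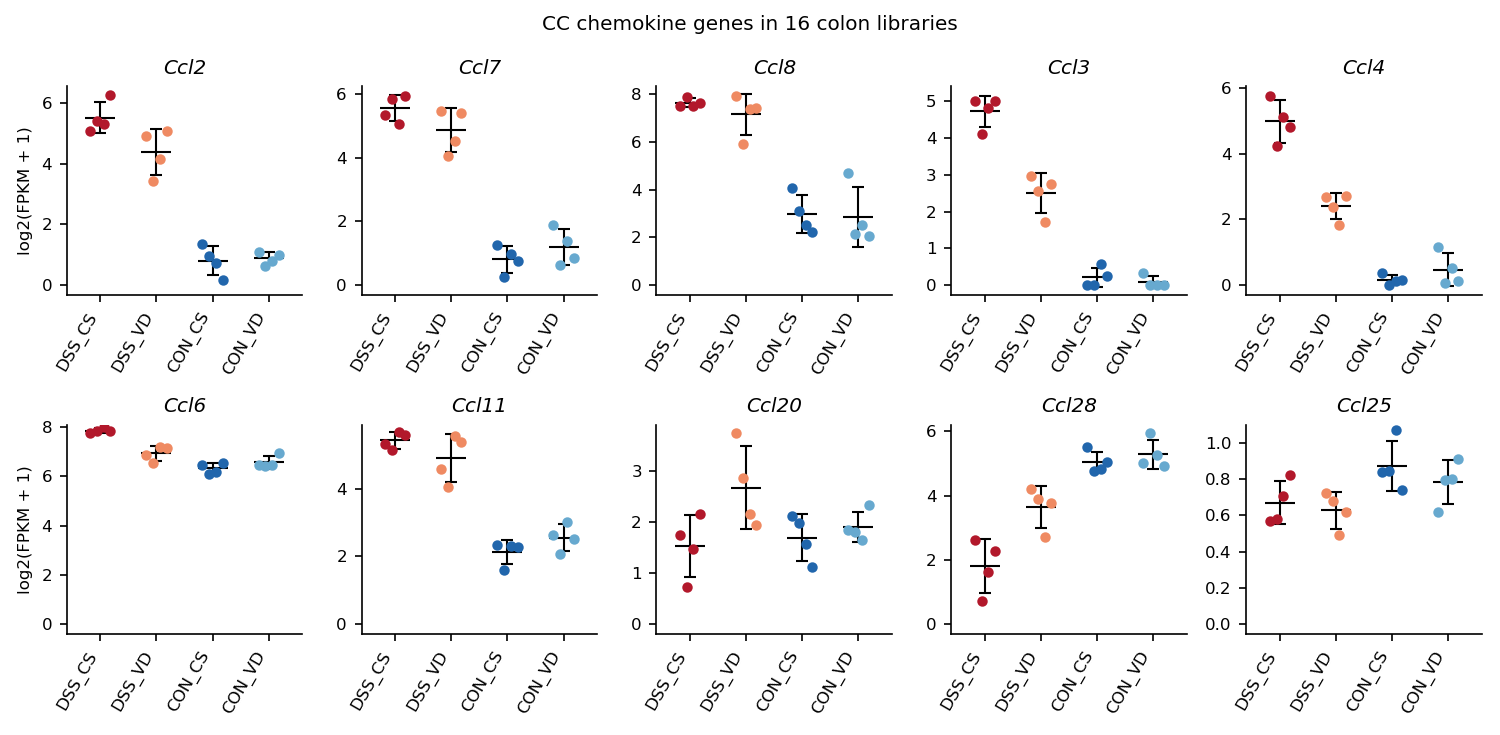
log2(FPKM + 1) of each CC chemokine gene in each library (dots; the groups run DSS_CS, DSS_VD, CON_CS, CON_VD from left to right), with the group mean and SD of the log2 values as a black bar and whiskers (n = 4 each). The DSS_CS dots lie above every DSS_VD dot for Ccl2, Ccl3, Ccl4 and Ccl6 and below every one for Ccl28.

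Ccl3 (ENSMUSG00000000982), the macrophage inflammatory protein 1-alpha that binds Ccr1, had 31.3, 16.4, 27.0 and 31.2 FPKM in the DSS_CS libraries, against 6.76, 4.92, 2.26 and 5.79 FPKM in the DSS_VD libraries. The lowest DSS_CS library was above the highest DSS_VD library. On water Ccl3 stood at 0, 0, 0.482 and 0.183 FPKM in CON_CS and at 0.25, 0, 0 and 0 FPKM in CON_VD, so it was listed at 0 in 2 of the 4 CON_CS libraries and 3 of the 4 CON_VD libraries. The mean in DSS_CS was 5.37 times that in DSS_VD, and the log2 difference was 2.24 ± 0.30 (SE; limma adjusted p = 0.0243).

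Ccl4 (ENSMUSG00000018930), macrophage inflammatory protein 1-beta, differed in the same direction. It had 53.8, 17.7, 34.0 and 27.0 FPKM in DSS_CS, against 5.46, 4.19, 2.58 and 5.58 FPKM in DSS_VD, again without overlap. The mean was 7.44 times as high in DSS_CS, and the log2 difference of 2.58 ± 0.33 (SE; limma adjusted p = 0.0225) was the largest of any member in this comparison. Water libraries held at most 0.279 FPKM in CON_CS and at most 1.22 FPKM in CON_VD. Ccl3 and Ccl4 were lowest among the DSS_CS libraries in replicate 2 and lowest among the DSS_VD libraries in replicate 3.

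Ccl6 (ENSMUSG00000018927), a myeloid chemokine of rodents that acts on Ccr1, had the highest mean FPKM of the members in DSS_CS, CON_CS and CON_VD and the second highest, after Ccl8, in DSS_VD. It had 215, 232, 255 and 228 FPKM in DSS_CS, against 115, 92.4, 144 and 143 FPKM in DSS_VD. The DSS_CS libraries lay close together and all above the DSS_VD libraries. The mean was 1.88 times as high in DSS_CS, with a log2 difference of 0.92 ± 0.16 (SE; limma adjusted p = 0.0313). The gene E230016K23Rik on the other strand overlaps Ccl6 and stood between 0 and 0.492 FPKM in the 16 libraries.

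Ccl28 (ENSMUSG00000074715), the epithelial chemokine of the colon, went the other way. It had 5.14, 0.640, 2.04 and 3.81 FPKM in DSS_CS, against 17.6, 13.8, 5.52 and 12.7 FPKM in DSS_VD, and every DSS_CS library was below every DSS_VD library. The gap was narrow between DSS_CS replicate 1 and DSS_VD replicate 3. The mean in DSS_VD was 4.27 times that in DSS_CS, and the log2 difference was -1.85 ± 0.45 (SE; limma adjusted p = 0.0377).

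Ccl2 (ENSMUSG00000035385), the main monocyte attractant acting on Ccr2, had 33.0, 41.6, 38.3 and 75.4 FPKM in DSS_CS, against 28.9, 9.83, 16.8 and 32.7 FPKM in DSS_VD. The ranges did not overlap, though the highest DSS_VD library lay just under the lowest DSS_CS library, and the log2 difference of 1.12 ± 0.39 (SE) had a limma adjusted p of 0.0859. Counting ranges alone, 5 of the 9 tested members lay apart between these groups, where 22.5% of all genes tested did.

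The remaining monocyte and eosinophil attractants overlapped between the birth groups under DSS. Ccl7, which also acts on Ccr1 and Ccr3, had 39.9, 55.9, 32.5 and 60.8 FPKM in DSS_CS, against 43.0, 15.6, 22.1 and 41.6 FPKM in DSS_VD, with means of 47.3 ± 13.3 FPKM in DSS_CS and 30.6 ± 13.8 FPKM in DSS_VD (SD, n = 4 each; log2 difference 0.69 ± 0.35, limma adjusted p = 0.205). Ccl8, a monocyte chemoattractant protein, had 178, 237, 181 and 198 FPKM in DSS_CS, against 238, 58.5, 165 and 172 FPKM in DSS_VD. Its highest DSS library was thus from a VD-born mouse, DSS_VD replicate 1. Ccl8 averaged 199 ± 27.0 FPKM in DSS_CS and 158 ± 74.3 FPKM in DSS_VD (0.48 ± 0.38, limma adjusted p = 0.426). Ccl11 had 39.5, 34.3, 50.2 and 47.7 FPKM in DSS_CS, against 22.9, 15.7, 46.8 and 41.1 FPKM in DSS_VD, where replicates 1 and 2 were low and replicates 3 and 4 reached the DSS_CS levels. It averaged 42.9 ± 7.35 FPKM in DSS_CS and 31.6 ± 14.7 FPKM in DSS_VD (0.54 ± 0.32, limma adjusted p = 0.290). For all 3 the lowest library was DSS_VD replicate 2. The SD was larger in DSS_VD than in DSS_CS for Ccl8 and Ccl11 and nearly equal for Ccl7.

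Among the other epithelial members, Ccl20 had 2.34, 0.660, 1.79 and 3.48 FPKM in DSS_CS, against 12.5, 6.30, 3.45 and 2.83 FPKM in DSS_VD. Its log2 difference was -1.15 ± 0.43 (SE; limma adjusted p = 0.106), and the ranges overlapped. Ccl25 stayed between 0.486 and 0.772 FPKM in DSS_CS and between 0.403 and 0.651 FPKM in DSS_VD, too low for the filter, and an exact two-sided permutation test gave p = 0.657, where 4 against 4 libraries cannot go below 0.0286. Ccl25 shares 204 bases with Elavl1 on the other strand, which stood at 4.35 to 6.41 FPKM, and the sources used here do not say whether reads were counted by strand.

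**Figure D3:**
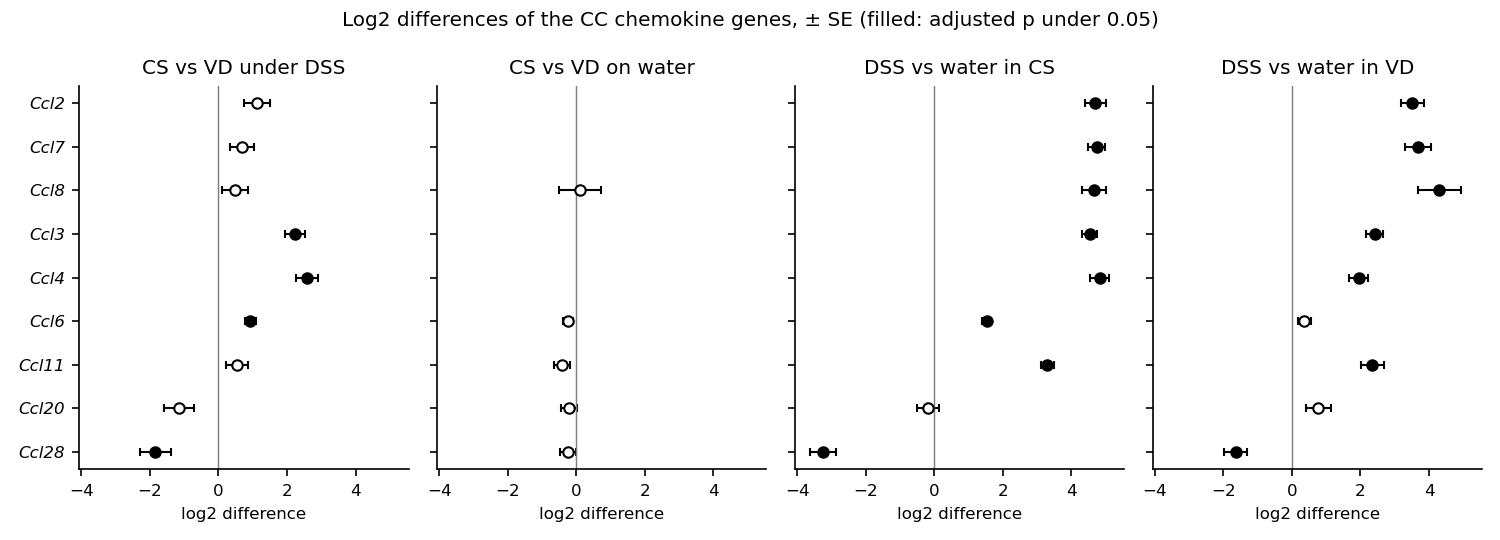
Difference on the log2(FPKM + 1) scale for 9 members in 4 comparisons, the first-named group minus the second, with the SE as a horizontal bar; filled dots have a limma adjusted p under 0.05, and genes too low to test are left blank. Ccl3, Ccl4, Ccl6 and Ccl28 are filled for CS vs VD under DSS and no member is filled on water.

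The calls under DSS depended on single libraries, while the direction of each difference did not. Without DSS_VD replicate 1, DSS_VD replicate 2 or DSS_CS replicate 3, 0 of the members passed, and without DSS_CS replicate 2, 2 passed. Without DSS_CS replicates 3 and 4, which held prostate transcripts, 0 passed, at log2 differences of 2.07 for Ccl3, 2.59 for Ccl4, 0.87 for Ccl6 and -1.98 for Ccl28 and limma adjusted p of 0.0816, 0.0721, 0.117 and 0.141. Over 15 alternatives the difference stayed between 1.98 and 2.46 for Ccl3, 2.31 and 2.83 for Ccl4, 0.79 and 1.003 for Ccl6, and -2.27 and -1.49 for Ccl28. The call itself held in 9 of the 15 for Ccl3 and for Ccl4 and in 8 for Ccl6, but in 6 for Ccl28, which also lost it without DSS_VD replicate 4 (limma adjusted p = 0.0706) or DSS_CS replicate 4 (limma adjusted p = 0.0553). The calls over all genes were as unstable: the 1923 genes came to 3 without the filter, 2 with the replicate number as a block and 6 without DSS_CS replicates 3 and 4.

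Some cell type marker lists differed between the birth groups under DSS, where 13.4% of all genes passed, 7.89% higher and 5.54% lower. T cell markers and B and plasma cell markers each had 0 of 7 past the threshold, at median log2 differences of -0.16 and -0.35. Endothelial and smooth muscle markers each had 0 of 6 (5 and 4 with an unadjusted limma p under 0.05), at medians of 0.54 and 0.64. Neutrophil markers had 5 of 8 higher in DSS_CS and 1 of 8, Ly6g, lower, and summed to between 798 and 1394 FPKM in DSS_CS and between 513 and 1001 FPKM in DSS_VD. These sums take in Ly6g, at means of 98.4 FPKM in DSS_CS and 380 FPKM in DSS_VD. The other 7 markers had higher means in DSS_CS. Of the 10 monocyte and macrophage markers, 0 passed in this comparison by limma (1, Cd163, had an unadjusted p under 0.05), and their sums overlapped at 1365 to 2137 FPKM in DSS_CS and 1108 to 1762 FPKM in DSS_VD. Fibroblast markers had 4 of 6 higher, at 1033 to 1398 FPKM in DSS_CS and 361 to 800.3 FPKM in DSS_VD. Colon epithelial markers had 5 of 10 lower, among them Epcam at a log2 difference of -1.48, and summed to between 751 and 2251 FPKM in DSS_CS and between 2112 and 4497 FPKM in DSS_VD. Their part in the differences of Ccl3, Ccl4, Ccl6 and Ccl28 was not tested. DSS_VD replicate 2, the lowest library for 5 members, had the highest epithelial sum of the DSS libraries and the lowest macrophage and fibroblast sums. Erythrocyte markers had 3 of 5 higher in DSS_CS, at 903 to 9731 FPKM in DSS_CS against 241 to 975 FPKM in DSS_VD. In every marker list named here, 0 genes passed by limma without the filter, with the replicate number as a block, or without DSS_CS replicates 3 and 4, settings applied to these lists after the data were seen. The lowest limma adjusted p of a neutrophil marker was then 0.0845, 0.0573 and 0.0899, in that order of settings.

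**Figure D4:**
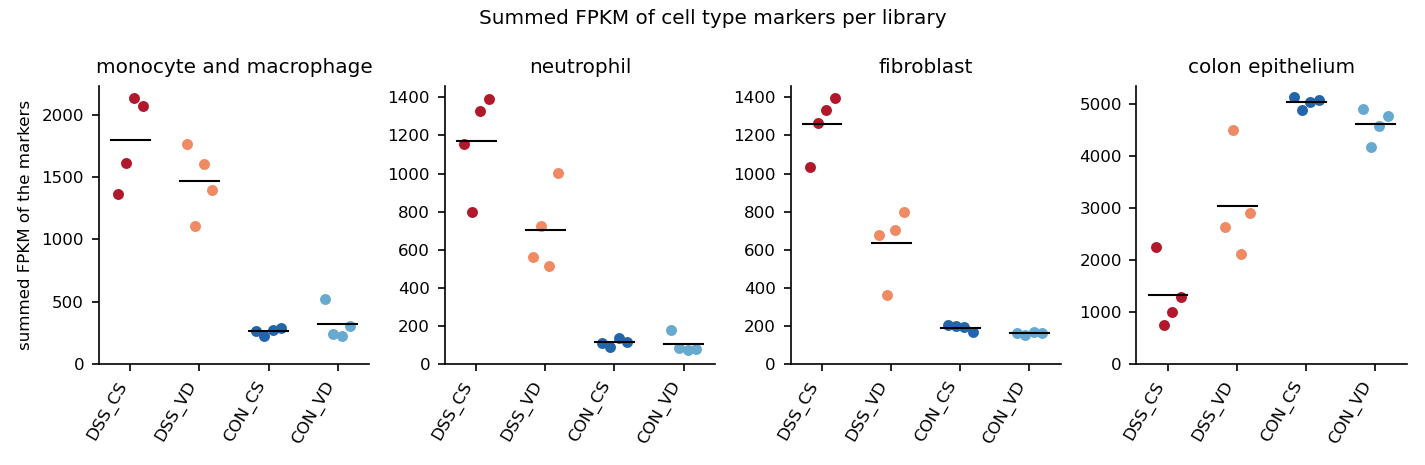
Summed FPKM of 10 monocyte and macrophage, 8 neutrophil, 6 fibroblast and 10 colon epithelial markers in each library (dots; groups run DSS_CS, DSS_VD, CON_CS, CON_VD from left to right), with the group mean as a line. Fibroblast sums of DSS_CS (1033 to 1398 FPKM) lie above those of DSS_VD (361 to 800.3 FPKM), while macrophage sums overlap. The neutrophil sums take in Ly6g, which makes up nearly all of them on water and was lower in DSS_CS than in DSS_VD.

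On water, 0 of the 5 members tested passed between CS-born and VD-born mice, where 0.407% of all 13275 genes did, 0.181% higher and 0.226% lower. By unadjusted limma p under 0.05 the count was also 0. Ccl6 averaged 79.9 ± 12.3 FPKM in CON_CS and 95.5 ± 18.4 FPKM in CON_VD (log2 difference -0.25 ± 0.15), and Ccl28 averaged 32.6 ± 8.30 FPKM in CON_CS and 39.7 ± 14.2 FPKM in CON_VD (-0.25 ± 0.24). Ccl11 had the lowest limma adjusted p of the 5, 0.342, at 3.50 ± 0.967 FPKM in CON_CS and 5.05 ± 1.64 FPKM in CON_VD. Ccl2, Ccl3, Ccl4, Ccl7 and Ccl25 were too low for the filter, and their exact two-sided permutation p values lay between 0.314 and 0.771. CON_VD replicate 1 was the highest water library of its group for Ccl2, Ccl3, Ccl4, Ccl7 and Ccl8, and had 25.1 FPKM of Ccl8 against 3.18 to 4.76 FPKM in the other CON_VD libraries. This library also had the highest macrophage, T cell and neutrophil marker sums of its group, the last nearly all Ly6g. The part of these cells in these values was not tested. Without CON_CS replicate 1, which held prostate transcripts, again 0 of the 5 passed.

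Most members were higher after DSS than on water in both birth groups. In CS-born mice 8 of the 9 tested members passed, 7 higher and Ccl28 lower, where 60.3% of 14372 genes passed, 34.4% higher and 25.9% lower. In VD-born mice 7 of 9 passed, 6 higher and Ccl28 lower, where 40.9% of 13933 genes did, 24% higher and 17% lower. Ccl2, Ccl3, Ccl4 and Ccl7 in CS-born mice, and Ccl2, Ccl3 and Ccl4 in VD-born mice, passed the filter through the DSS libraries alone, so these counts are a description. Without the 3 libraries with prostate transcripts, 4 members passed in CS-born mice, since the filter then left out those expressed only after DSS. Ccl8 averaged 199 FPKM in DSS_CS against 7.88 FPKM in CON_CS (log2 difference 4.66 ± 0.35, limma adjusted p = 7.0e-06), and 158 FPKM in DSS_VD against 9.10 FPKM in CON_VD (4.30 ± 0.62, limma adjusted p = 0.000651). Ccl11 averaged 42.9 FPKM in DSS_CS against 3.50 FPKM in CON_CS (3.30 ± 0.19) and 31.6 FPKM in DSS_VD against 5.05 FPKM in CON_VD (2.35 ± 0.34). The 7 markers of eosinophils, the cells Ccl11 attracts, summed to 4.22 to 7.99 FPKM in DSS_CS and 5.07 to 7.87 FPKM in DSS_VD, against 0.710 to 1.16 FPKM in CON_CS and 0.700 to 1.67 FPKM in CON_VD. Of these markers 1 of 1 tested was higher after DSS in CS-born mice and 2 of 2 in VD-born mice. Those tested, Il5ra in both birth groups and Prg2 in VD-born mice, passed the filter through the DSS libraries. At most 1 water library reached 1 FPKM, so these counts and the p-values of both genes are a description. Il5ra, a subunit of the interleukin 5 receptor, averaged 2.35 FPKM in DSS_CS against 0.0316 FPKM in CON_CS (log2 difference 1.67, limma adjusted p = 1.76e-05) and 3.25 FPKM in DSS_VD against 0.0574 FPKM in CON_VD (1.99, limma adjusted p = 2.87e-05). Prg2, an eosinophil granule protein, averaged 2.09 FPKM in DSS_CS against 0.111 FPKM in CON_CS, too few libraries for the filter, and 1.98 FPKM in DSS_VD against 0.559 FPKM in CON_VD (0.91, limma adjusted p = 0.0206). Epx, the eosinophil peroxidase, was at most 0.0218 FPKM in DSS_CS and 0.0157 FPKM in DSS_VD. The part of these cells in the Ccl11 difference was not tested. All 10 monocyte and macrophage markers were higher after DSS in each birth group, against sums on water of 227 to 286 FPKM in CON_CS and 221 to 523 FPKM in CON_VD, and their part in these differences was not tested.

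Ccl2 averaged 0.820 FPKM in CON_CS and 0.851 FPKM in CON_VD, and Ccl7 averaged 0.804 FPKM in CON_CS and 1.40 FPKM in CON_VD. Their log2 differences were 4.71 and 4.74 in CS-born mice and 3.51 and 3.68 in VD-born mice. For Ccl6, 232 FPKM in DSS_CS against 79.9 FPKM in CON_CS passed (log2 difference 1.54 ± 0.13, limma adjusted p = 1.1e-05), whereas 124 FPKM in DSS_VD against 95.5 FPKM in CON_VD did not (0.36 ± 0.19, limma adjusted p = 0.149) until DSS_VD replicate 2 was left out (0.50, limma adjusted p = 0.0463). Ccl20 passed in neither, at log2 differences of -0.17 in CS-born and 0.77 in VD-born mice; on water it had 3.31, 2.97, 1.98 and 1.16 FPKM in CON_CS and 2.57, 2.52, 2.13 and 4.02 FPKM in CON_VD. Ccl28 fell in both, to 2.91 FPKM in DSS_CS against 32.6 FPKM in CON_CS (-3.24 ± 0.38) and to 12.4 FPKM in DSS_VD against 39.7 FPKM in CON_VD (-1.64 ± 0.33, limma adjusted p = 0.00392). The water libraries held 44.5, 26.2, 27.7 and 32.1 FPKM of Ccl28 in CON_CS and 31.6, 60.4, 37.3 and 29.4 FPKM in CON_VD, all above every DSS library. All 10 colon epithelial markers were lower in DSS_CS than in CON_CS, where 25.9% of all genes tested were. In DSS_VD 5 of 10 were lower than in CON_VD, where 17% of all genes tested were. The part of these markers in the Ccl28 difference was not tested.

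The difference between the birth groups in the response to DSS was tested directly as an interaction over all 16 libraries. Of the 9 members tested, 3 passed, all with a larger response in CS-born mice, where 13.2% of 15233 genes passed in either direction (6.68% with a larger and 6.55% with a smaller value in CS-born mice). The interaction was 2.88 ± 0.42 for Ccl4 (SE; limma adjusted p = 0.00423), 2.12 ± 0.35 for Ccl3 (limma adjusted p = 0.00694) and 1.17 ± 0.23 for Ccl6 (limma adjusted p = 0.0110) on the log2 scale. Ccl3 reached 1 FPKM in 0 water libraries and Ccl4 in 1, of CON_VD, so both entered the test through the DSS libraries. With Ccl3 and Ccl4 near 0 on water, their interactions largely restate their differences of 2.24 and 2.58 under DSS and are no separate results. Ccl4 and Ccl6 passed in all 22 alternatives run and Ccl3 in 21, the exception being a pseudocount of 0.1 (1.90, limma adjusted p = 0.127). This test takes its spread from all libraries, including water libraries near 0 for Ccl3 and Ccl4. Between the birth groups under DSS alone, Ccl3 and Ccl4 each passed in 9 of 15 alternatives and Ccl6 in 8. For Ccl28 the interaction was -1.60 ± 0.55 (limma adjusted p = 0.0638), and for Ccl2, Ccl7, Ccl11, Ccl20 and Ccl8 it lay between -0.94 and 1.19 with limma adjusted p of 0.108 to 0.792. Neutrophil markers had 5 of 8 with a larger and 1 with a smaller response in CS-born mice. Those other than Ly6g reached 1 FPKM in 0 water libraries, so they entered through the DSS libraries and their count is a description. Erythrocyte markers had 5 of 5 larger and colon epithelial markers 5 of 10 smaller. Monocyte and macrophage markers had 1 of 10 larger and fibroblast markers 1 of 6. The part of these cells in these 3 results was not tested.

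Most CC receptors that could be tested were higher after DSS. Among 13 CC receptors, 8 of 8 tested were higher in DSS_CS than in CON_CS, where 34.4% of all genes were, and 6 of 8 in DSS_VD than in CON_VD, where 24% of all genes were. Ccr10 and Ackr4 were those that did not pass in VD-born mice. Of the 8 tested, 5 in CS-born mice (Ccr2, Ccr6, Ccr7, Ackr2 and Ccrl2) and 4 in VD-born mice (Ccr2, Ccr6, Ccr7 and Ccrl2) passed the filter through the DSS libraries, with at most 1 water library at 1 FPKM, so these counts are a description. Ccr1 averaged 30.1 ± 9.02 FPKM in DSS_CS and 18.3 ± 5.26 FPKM in DSS_VD, against 1.26 ± 0.274 FPKM in CON_CS and 1.45 ± 0.699 FPKM in CON_VD. The Ccr2 and Ccr6 means in DSS_CS were 10.0 and 4.64 FPKM, against 6.72 and 6.67 FPKM in DSS_VD. None of Ccr1, Ccr2, Ccr6 and Ccr10 passed between the birth groups under DSS (limma adjusted p 0.123 to 0.925), and Ccr3 and Ccr9 were too low to test. Ccr10 on water averaged 0.569 FPKM in CON_CS and 1.34 FPKM in CON_VD without overlap, at a limma adjusted p of 0.0752.

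Under DSS, 2 of 9 tested receptors and 1 of 8 other CC ligands passed between the birth groups, where 13.4% of all genes passed and 7.89% were higher in DSS_CS. In either list 0 passed without the filter, with the replicate number as a block, or without DSS_CS replicates 3 and 4. Ccrl2, an atypical receptor that binds chemerin, had 14.3, 5.60, 15.6 and 16.03 FPKM in DSS_CS, against 4.94, 2.99, 3.40 and 4.88 FPKM in DSS_VD (log2 difference 1.38 ± 0.31, limma adjusted p = 0.0339). Ackr4, a scavenger receptor for Ccl19, Ccl21 and Ccl25, averaged 1.89 ± 0.523 FPKM in DSS_CS and 0.774 ± 0.201 FPKM in DSS_VD (0.69 ± 0.15, limma adjusted p = 0.0327). It reached 1 FPKM in 4 DSS_CS libraries and 1 DSS_VD library, so it passed the filter through DSS_CS and its call is a description. Ccl9, a Ccr1 ligand encoded beside Ccl6, had 48.1, 52.2, 64.3 and 63.5 FPKM in DSS_CS, against 21.6, 17.2, 40.6 and 28.9 FPKM in DSS_VD (1.11 ± 0.25, limma adjusted p = 0.0339). The groups did not overlap for any of these 3. Without DSS_CS replicates 3 and 4 the log2 difference was 1.01 for Ccrl2 (limma adjusted p = 0.169) and 0.93 for Ccl9 (limma adjusted p = 0.169), and Ackr4 was too low for the filter. Ccl5, Ccl12, Ccl17, Ccl19, Ccl21a, Ccl22 and Ccl24 did not pass in this comparison.

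**Figure D5:**
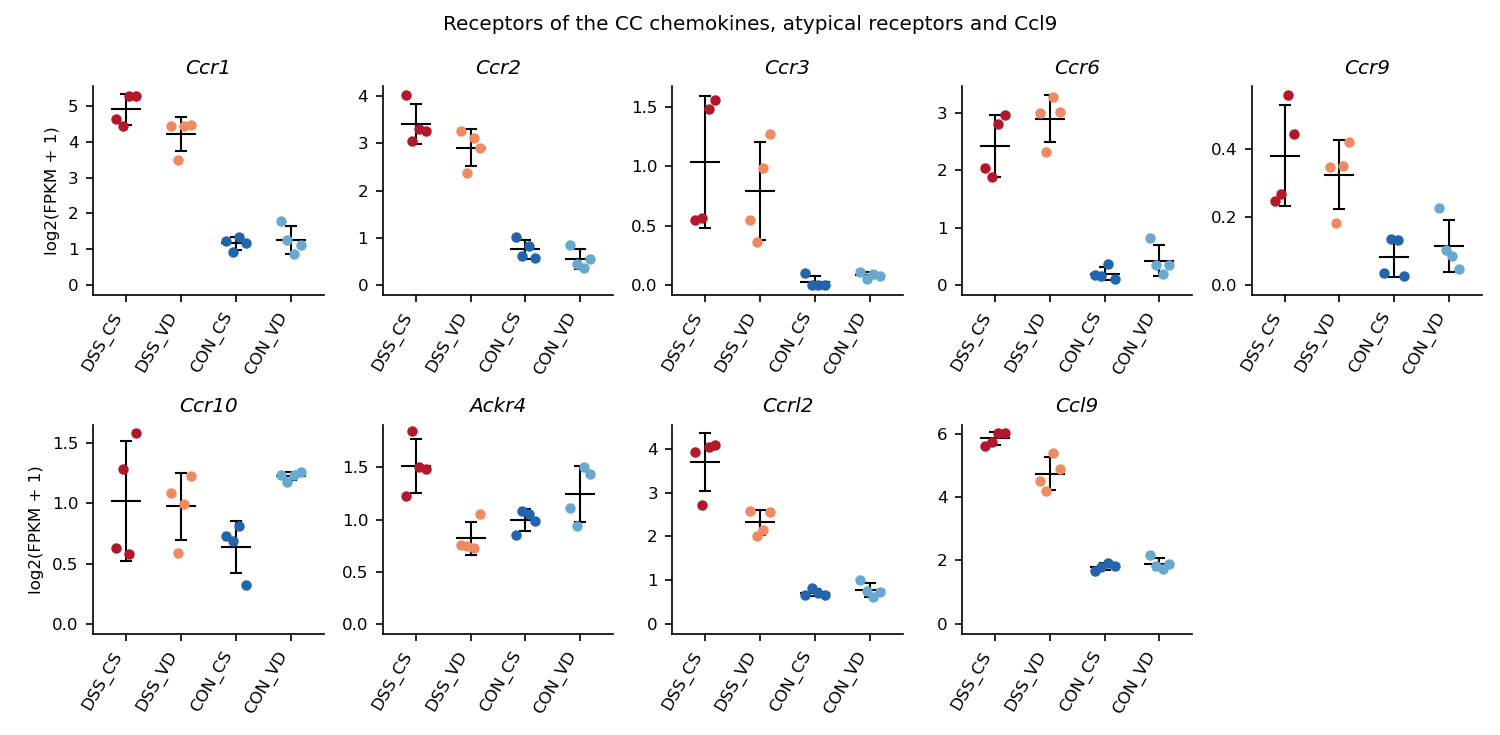
log2(FPKM + 1) in each library (dots) of receptors of these chemokines, the atypical receptors Ackr4 and Ccrl2, and Ccl9, with the group mean and SD as a bar and whiskers (n = 4 each; groups run DSS_CS, DSS_VD, CON_CS, CON_VD from left to right). Ccrl2, Ackr4 and Ccl9 lie higher in every DSS_CS library than in any DSS_VD library.

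For each member, the 3 genes with the most similar profile were found among 13014 genes by Pearson's r of log2(FPKM + 1) over the 16 libraries. The libraries share the split between DSS and water, so r takes in that split as well as the variation within groups. Ccl3 was most like Il1a (r = 0.987) and Ccl4 (0.984), and Ccl4 was next most like Osm (0.979) and Hcar2 (0.979). Ccl2 was most like Pde4b (0.989), Ccl7 like Clec7a (0.988), Ccl8 like Cnn2 (0.986), and Ccl11 like Serpina3n (0.983). Ccl28 was most like Pigr (0.980), the epithelial transporter of IgA, and Ocln (0.980), a tight junction gene. Ccl6 was most like Cdr2l (0.970), and the weakest best matches were those of Ccl20 (Arhgap17, 0.894) and Ccl25 (Lyrm9, 0.865).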

How the data were processed

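Gene expression was measured by RNA-seq in 16 colon libraries, 4 per group, grouped by their titles. The authors deposited 1 table of FPKM values per gene. Reads were handled with cutadapt and FastQC and the build was GRCm38, per the submitters' processing notes; the aligner and counting method, strand setting included, are not given in the sources. Depth is unknown, so no counting interval was computed. Gene symbols came from GENCODE M21 (39181 of 39328 identifiers matched).

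Comparisons of a pair of groups used only the 8 libraries of those groups and the interaction used all 16; the tool was limma 3.58.1 (R 4.3.3, moderated test with intensity trend) on log2(FPKM + 1). A gene was tested where at least 4 fitted libraries had at least 1 FPKM, and p-values were adjusted by Benjamini-Hochberg over all genes tested. Members below the filter had an exact two-sided permutation test. The procedure was tested on simulated data with 200 changed genes. Alternatives were a pseudocount of 0.1, no filter, median-of-ratios scaling, no intensity trend, 1 fit on all groups, a replicate block, leaving out the libraries with prostate genes, and leaving out each library.

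The text names the 10 members, their receptors (1 is not reported here and is left out of the receptor counts), other CC receptors and ligands past the threshold, and the 3 most similar genes of each member. Other genes are named as examples of marker lists or because a result turned on them, chosen after their values were seen. Members and lists were chosen with earlier results of these data known.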

Additional observations from a re-analysis of the deposited data

Results flagged for a closer look

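A single library was flagged as lying apart from the other 3 of its group in 4 of 40 combinations of member and group. Chance flags about 1 in 20, a rate that does not hold for tied values at 0. In CON_VD replicate 1, Ccl3 was highest at 0.25 FPKM, with the other 3 libraries at 0, and Ccl8 was highest at 25.1 FPKM. With 3 libraries at 0 the rule flags the remaining library at any value, so the Ccl3 flag carries no weight. In CON_VD replicate 4, Ccl6 was highest at 123 FPKM. In CON_CS replicate 2, Ccl11 was lowest at 2.05 FPKM.

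The response to DSS differed between CS-born and VD-born mice, by the limma interaction test, for Ccl4 (2.88 on the log2 scale, adjusted p = 0.00423), Ccl3 (2.12, adjusted p = 0.00694) and Ccl6 (1.17, adjusted p = 0.0110). Ccl3 and Ccl4 were near 0 on water, so their values here largely restate their differences under DSS. In each case all 4 DSS_CS libraries lay above all 4 DSS_VD libraries.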

How the results depend on the processing

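Of 653 member values recomputed under the alternatives, 610 kept their direction and side of the threshold, 29 lost the call, 7 gained it and 7 reversed. The 4 member calls for CS against VD under DSS came to 0 without the filter, with the replicate block and without the prostate libraries. They came to between 0 and 4 when each library was left out. In 1 fit on all groups 6 were called, with Ccl2 (limma adjusted p = 0.0254) and Ccl20 (limma adjusted p = 0.0337) added. Over all genes that comparison called 1923, against 3 without the filter, 2 with the replicate block, 6 without the libraries with prostate genes, 3871 in 1 fit on all groups and 0 to 2054 when a library was left out. On water 54 genes were called, against 3 without the filter, 7 with the replicate block, 15 without the prostate library and 0 to 275 when a library was left out. For DSS against water, member calls ranged from 6 to 8 in CS-born and from 6 to 7 in VD-born mice when a library was left out, and came to 4 in CS-born mice without the prostate libraries, where the filter then left out genes expressed only in the 2 remaining DSS libraries. The 8666 genes called there came to 5217. For the interaction, member calls ranged from 2, with a pseudocount of 0.1, to 4, and its 2015 genes came to 1042 without the filter, 637 without the prostate libraries and 1056 to 2515 when a library was left out.

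Values that reversed had limma adjusted p of 0.777 to 0.973. The Ccl8 difference between CS and VD on water, 0.12 as tested, was -0.24 without CON_CS replicate 1, the prostate library of that comparison, -0.13 without CON_VD replicate 2 and -0.15 without CON_VD replicate 4, in a range up to 0.74 over single libraries left out. The Ccl20 difference between DSS and water in CS-born mice was 0.10 without DSS_CS replicate 2, in a range down to -0.38, and the Ccl8 interaction was -0.25 without CON_VD replicate 1 and -0.05 without DSS_VD replicate 2, in a range up to 0.72. The cause was not tested. The labels do not say whether replicate numbers pair the libraries. Same-numbered libraries correlated at -0.278 to 0.128 in their deviations from the group means. No differently numbered libraries were set beside them, so these values cannot tell whether the numbers mark a shared litter or batch. The replicate block also brought Ccl11 past the threshold in the interaction (0.96, limma adjusted p = 0.0340). Without counts, the precision of genes near 0 FPKM, such as Ccl3 and Ccl4 on water, cannot be given.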
